A study of Triticum dicoccoides with 12 samples.

Results

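The transcripts described here are those whose response to terminal drought differed between 2 genotypes of wild emmer wheat, the drought-resistant Y12-3 (R) and the drought-susceptible A24-39 (S). All 12 of the 12 arrays of the series were used, 3 in each of R under terminal drought, R kept well watered, S under terminal drought and S kept well watered. The samples were phyllome, that is leaf-like organs, of plants 10 weeks old in reproductive growth, which per the labels stood in quartz sand and peat at 4:1. Each kind of plant is a single genotype, so a difference between R and S is one between these lines. Whether a group's 3 samples are separate plants is not in the labels, and the p-values therefore cover only the spread among these 12 samples, part or all of which may be technical. For each probe set, the well-watered mean was subtracted from the drought mean within each genotype, on a scale of log2(signal + 16), and the change in S was then subtracted from that in R. A positive interaction therefore means that drought moved the transcript further up, or less far down, in R than in S. Of 38398 probe sets tested, 57 passed a Benjamini-Hochberg adjusted p of 0.05 (limma), which is 0.148%.

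Terminal drought is a shortage of water that sets in around flowering and lasts into grain filling. Leaves of cereals then close their stomata under the hormone abscisic acid, lower the transcripts of photosynthesis, raise those of protective proteins such as dehydrins and begin to senesce. Lines that differ in resistance can differ in which transcripts respond, in how far, or in the level from which they start, and an interaction takes in all 3 cases. Wild emmer carries an A and a B genome, whose gene copies are nearly alike, so 1 probe set can read several copies together. In whole organs, fewer cells of a kind and less transcript per cell cannot be told apart.

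Array medians ran from 58.6 to 152 signal units. Well-watered R replicate 3 stood apart at the top, where 33042 probe sets exceeded the control level, whereas between 21848 and 27343 did on each of the others. The control level of 129 is the 95th percentile of 23 probe sets that target no wheat transcript, and a signal under it is called dim. Of the 4 leaf genes FBP, GAPN, petC and CAT1, 1 probe set each was above the control level on all 12 arrays, and a second one of FBP on 2 and of CAT1 on 8 arrays. On these brighter probe sets the Rieske protein petC ranged from 10878 to 33496 under drought and from 48897 to 68748 with good watering, catalase CAT1 from 19936 to 40809 and from 33195 to 65969. FBP and GAPN lay further apart between the regimes. FBP ranged from 472 to 2707 under drought and from 10501 to 16057 with good watering, and GAPN from 224 to 2055 and from 7526 to 12915.

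The 57 probe sets divided evenly by sign, with 29 interactions above 0 (0.0755% of the tested probe sets) and 28 below 0 (0.0729%). Drought alone was called far more often, for 33.4% of the tested probe sets in R and 27.2% in S, and at an unadjusted p under 0.05 the interaction was met by 4955 (12.9%). By the calls within each genotype, 19 of the 57 were changed by drought in R and not called in S, 19 were called in S and not in R, 9 were called in both with opposite directions, and 10 were called in both with the same direction and unequal size. No probe set called in neither genotype had a called interaction. Of the probe sets called in both genotypes with opposite signs, 9 of 37 (24.3%) had a called interaction, in which such changes add up by construction. The count was 19 of 5313 (0.358%) for those called in R alone, 19 of 2950 (0.644%) for S alone and 10 of 7474 (0.134%) for those called in both with the same sign. The classes are defined by the changes that make up the interaction, so these shares are not compared.

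Interactions of the 57 ranged in absolute size from 1.62 to 7.73 with a median of 3.65, and their SE from 0.27 to 0.99. Over all tested probe sets the median 95% interval, not adjusted for the number of tests, reached 1.43 either side of the estimate. A call needed a far stricter p, and the last one inside the threshold had an unadjusted p of 7.1e-05 (limma). Differences well above 1.43 could therefore also be missed with 3 arrays a group. The median interaction of all tested probe sets was −0.21, set against which each of the 57 kept its sign. The split of calls by sign depended on how the arrays were scaled. Median scaling gave 133 calls above and 29 below 0, and quantile normalization gave 44 and 27. Scaling to the hybridization controls gave 81 and 14, and scaling to the poly-A controls 14 and 40. The median interaction of all tested probe sets was then 0.20, 0.02, 0.49 and −0.39. All 57 kept their own sign under each of these, and no drought change that was called within R or S changed direction. Calls pick changes that are large against their errors, so kept signs are no separate check.

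**Figure D1:**
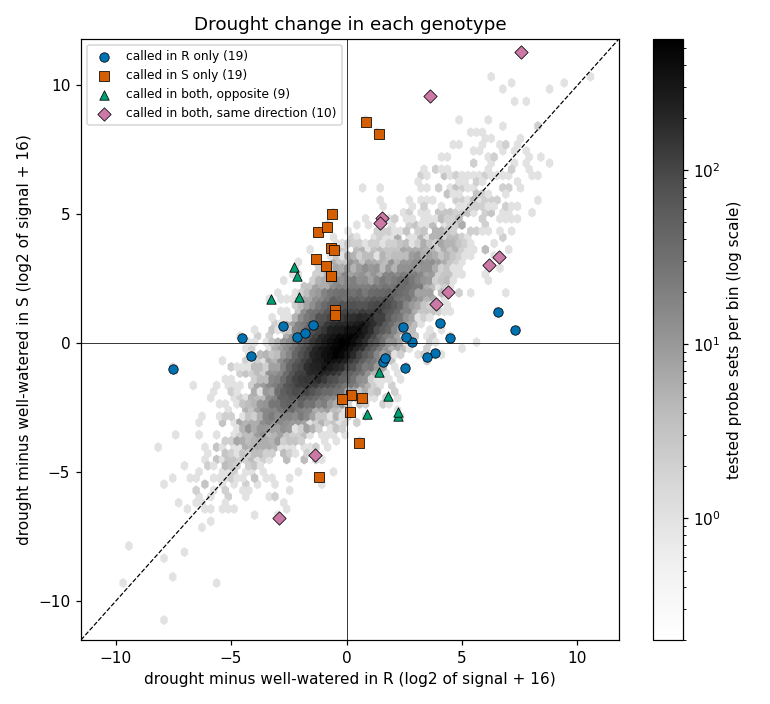
Drought change in R (horizontal) against drought change in S (vertical), both as log2 of signal + 16, with all 38398 tested probe sets as grey bins and the 57 with a called interaction as coloured symbols by class. The dashed line marks equal change, and the 9 of the opposite class lie where one change is above 0 and the other below.

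Of the 9 probe sets that drought moved in opposite directions, 5 were higher in droughted than in well-watered R and lower in droughted S, and 4 ran the other way. The pair from design cluster Ta.28675 had the lowest p of the whole table. Ta.28675.1.A1_at had signals of 47033, 32094 and 24044 in droughted R plants, against 5515, 8234 and 7880.3 in well-watered R plants. The same probe set gave 1853, 1984 and 1654 in droughted S plants, against 12461, 13161 and 9885 in well-watered S plants. Neither pair of groups overlapped, the droughted R arrays were the highest of the 12 and the droughted S arrays the lowest. The drought change was 2.22 ± 0.25 in R and −2.68 ± 0.25 in S on the log2 scale (SE), and the interaction was 4.89 ± 0.35 (adjusted p = 2.4e-05). Its companion Ta.28675.1.A1_s_at, whose probes can also match related transcripts, gave an interaction of 5.05 ± 0.36 (adjusted p = 2.4e-05) from 2.23 in R and −2.82 in S. The 2 probe sets share a design sequence and are no separate evidence. No gene is paired with either one in the platform annotation.

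TaAffx.107614.1.S1_at also rose in R and fell in S, but its S groups stood further apart. It had signals of 11621, 7559 and 7158 in droughted R plants, against 6257, 3825 and 3970.3 in well-watered R plants. Its S signals were 6863, 3424 and 6944 in droughted S plants, against 49396, 33660 and 29970 in well-watered S plants. The 3 well-watered S arrays were the highest of the 12, and the other 9 were all above the control level. Its interaction was 3.65 ± 0.44 (adjusted p = 0.0043), with a change of 0.91 ± 0.31 in R that passed at an adjusted p of 0.038 and one of −2.75 ± 0.31 in S. Ta.21397.1.S1_at had a smaller interaction of 2.53 ± 0.43 (adjusted p = 0.037), with signals of 6119 ± 889.6 in droughted and 2452 ± 1225 in well-watered R plants and of 3318 ± 415 in droughted and 7348 ± 2071 in well-watered S plants (SD, n = 3 each). TaAffx.12040.1.S1_at moved by 1.81 in R and −2.05 in S, but both R groups were dim on every array. In S it was at least 3.38-fold lower under drought, and that fall is its measured part. Its interaction was 3.85 ± 0.58 (adjusted p = 0.021), and 1.64 (adjusted p = 7.4e-05) with dim signals set to the control level. That setting removes the spread within wholly dim groups. Adjusted p-values under it, here and below, can therefore be too small.

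The other 4 of the opposite class fell in R and rose in S. Ta.13991.1.S1_x_at had signals of 351, 1296 and 1646 in droughted R plants, against 6035, 4367 and 3541 in well-watered R plants. For S the values were 3742, 7245 and 7748 in droughted S plants, against 459, 614 and 1540.2 in well-watered S plants. All 12 arrays were above the control level and the direction turned between the genotypes, with an interaction of −5.24 ± 0.75 (adjusted p = 0.015). TaAffx.128617.14.S1_x_at had 71.6, 149 and 126 in droughted R plants, against 479, 340.2 and 793 in well-watered R plants. The S arrays gave 454, 409 and 508 in droughted S plants, against 82.6, 139 and 151 in well-watered S plants, and its interaction was −3.83 ± 0.54 (adjusted p = 0.015). Drought and well-watered arrays did not overlap in either genotype for these 2 probe sets, and R was the higher genotype with good watering and the lower one under drought. Ta.1745.1.S1_at fell in R, with 144 ± 75.1 in droughted and 1471 ± 518 in well-watered R plants, while its S groups overlapped and its well-watered S arrays were all dim, so its rise of 1.70 in S is near the limit of detection (interaction −4.98 ± 0.78, adjusted p = 0.024). TaAffx.84785.2.S1_at was lower by 2.14 on the log2 scale under drought in R, where its droughted arrays were dim, and higher by 2.61 in S (interaction −4.75 ± 0.83, adjusted p = 0.042). With dim signals set to the control level, the interactions of Ta.1745.1.S1_at and TaAffx.84785.2.S1_at were −3.22 (adjusted p = 0.0078) and −2.12 (adjusted p = 0.015).

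**Figure D2:**
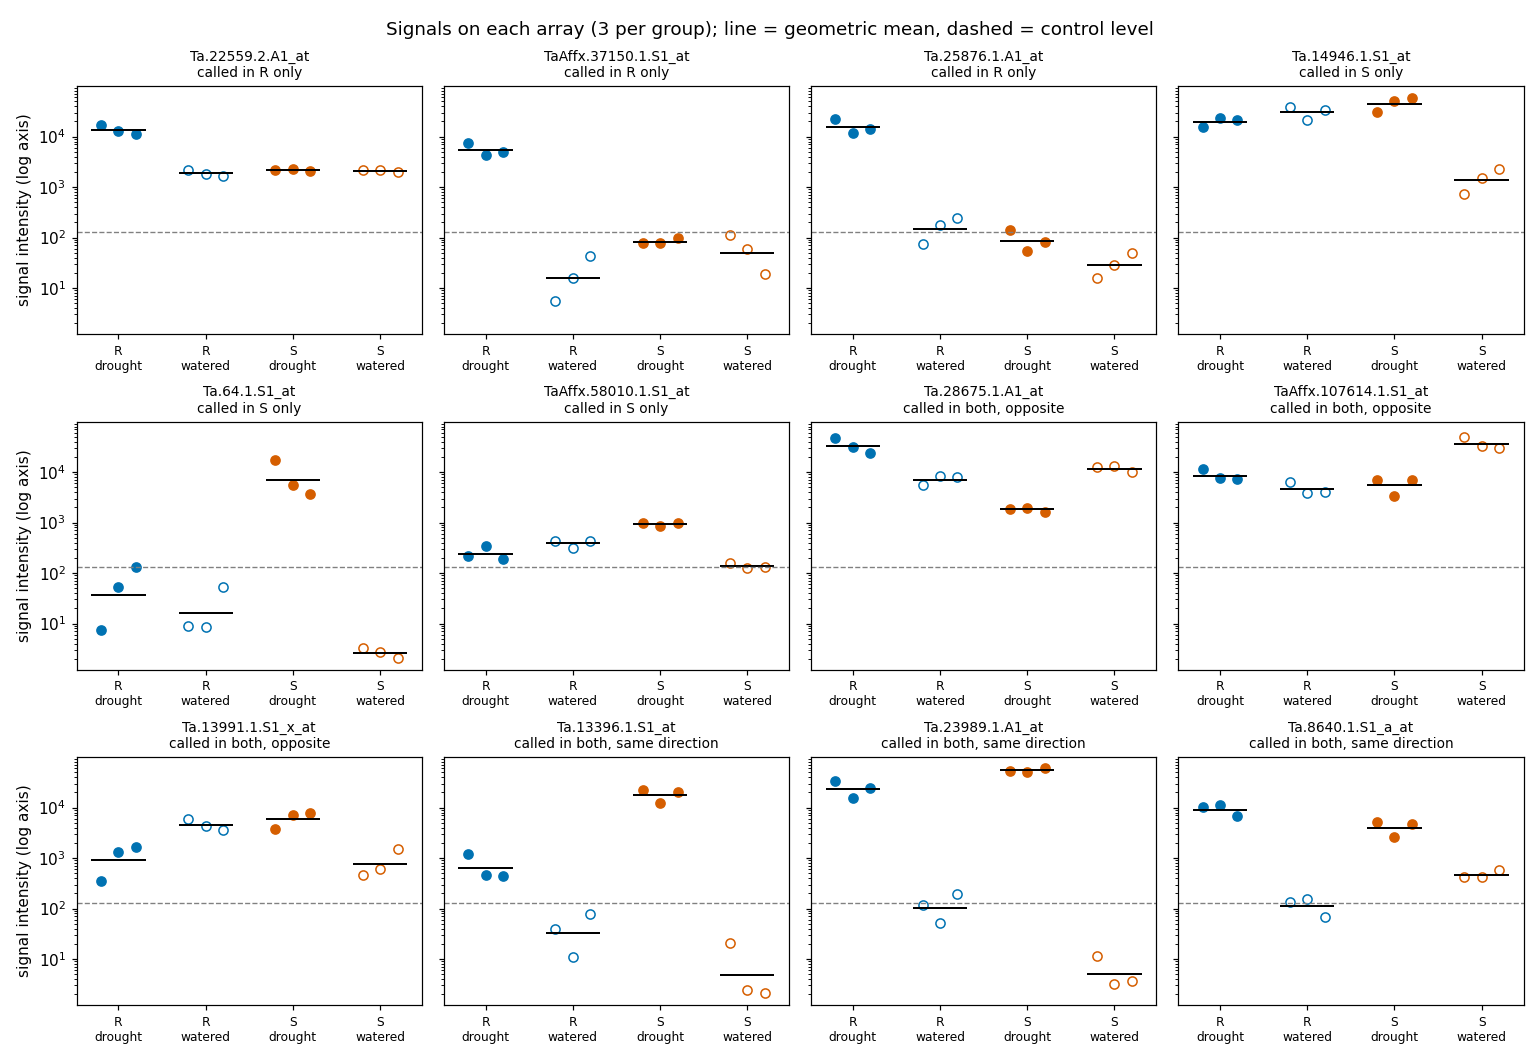
Signal intensity on a log axis for 12 probe sets, with 3 arrays in each of droughted R, well-watered R, droughted S and well-watered S. Points are single arrays, short lines are geometric means and the dashed line is the control level of 129. In Ta.28675.1.A1_at the droughted R arrays are the highest and the droughted S arrays the lowest, whereas in Ta.14946.1.S1_at the well-watered S arrays alone lie apart, between 723 and 2328.

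Drought changed 19 of the 57 in R without a call in S, 12 upward and 7 downward. A missing call in S does not show a lack of response. The 95% interval of the S change lay within 2-fold either way for 4 of the 19 and within 4-fold for 17. For 3 of the 19, both S groups were dim on every array. Droughted and well-watered arrays of R were free of overlap in 19 of 19, against 45.9% of all tested probe sets, and those of S in 8 of 19, against 43.8%. The R calls used to form the class make a high first count likely.

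Of the 12 that rose in R, TaAffx.37150.1.S1_at was dim in the other 3 groups. Its signals were 7349, 4246 and 5069.7 in droughted R plants, against 5.65, 15.8 and 44.2 in well-watered R plants. In S the values were 77.1, 77.3 and 96 in droughted S plants, against 111, 58.9 and 19.4 in well-watered S plants. The 3 droughted R arrays alone were above the control level, which makes the rise in R at least 41.9-fold, and S was dim in both regimes. Its interaction was 6.78 ± 0.70 (adjusted p = 0.00093), and 5.22 (adjusted p = 7.4e-05) with dim signals set to the control level. Ta.25876.1.A1_at had 22517, 11937 and 14386 in droughted R plants, against 73.3, 179 and 242 in well-watered R plants. Its S signals were 143, 55.4 and 82 in droughted S plants, against 15.9, 28.1 and 49.97 in well-watered S plants. Droughted R was the highest group by far and well-watered S the lowest, with changes of 6.57 ± 0.45 in R and 1.19 ± 0.45 in S and an interaction of 5.38 ± 0.64 (adjusted p = 0.0038). The S change had an adjusted p of 0.064 and an interval of 0.23 to 2.16, all above 0 when taken alone, but most S signals were dim.

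Other probe sets of this kind were measured above the control level in S too. Ta.22559.2.A1_at had 16990, 12657 and 11463 in droughted R plants, against 2183, 1789.8 and 1697 in well-watered R plants. S signals were 2184, 2282 and 2089.6 in droughted S plants, against 2193, 2138 and 1979 in well-watered S plants. Only the droughted R arrays stood apart, the S change of 0.06 ± 0.20 had an interval of −0.37 to 0.48, and the interaction was 2.78 ± 0.28 (adjusted p = 0.0009). Another probe set of its design cluster, Ta.22559.1.S1_s_at, did rise in S, by 1.26 (adjusted p = 0.00078, limma). That probe set rose by 2.69 in R, and its interaction of 1.43 did not pass (adjusted p = 0.088). Ta.438.3.S1_at had 28197, 23333 and 20107 in droughted R plants, against 1872, 1371 and 1799 in well-watered R plants. S gave 554, 314 and 287 in droughted S plants, against 327, 1298 and 262 in well-watered S plants. R lay above S in both regimes, and drought added to that difference in R with a change of 3.82 ± 0.45 and an interaction of 4.19 ± 0.64 (adjusted p = 0.022). Ta.28537.1.S1_x_at measured 1597, 2064 and 1513 in droughted R plants, against 48.3, 138 and 32.9 in well-watered R plants. S measured 261, 175 and 189 in droughted S plants, against 165, 152 and 219.8 in well-watered S plants, with an interaction of 4.26 ± 0.57 (adjusted p = 0.0095). Its S groups overlapped and its droughted R arrays were the highest of the 12.

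Ta.13444.1.S1_at, paired with locus LOC543440, started from a dim level in R alone. It had 640.5, 746 and 836 in droughted R plants, against 74.7, 81.8 and 19.6 in well-watered R plants. S had 1847, 463 and 1024 in droughted S plants, against 1529, 1166 and 1567 in well-watered S plants. Well-watered R was the lowest group, and the droughted R arrays lay within the range of the droughted S arrays. The rise in R was at least 5.71-fold and the interaction was 4.01 ± 0.65 (adjusted p = 0.027). Ta.22284.1.S1_at changed by 2.55 ± 0.40 in R and −0.96 ± 0.40 in S (interaction 3.51 ± 0.56, adjusted p = 0.026), with all 12 arrays above the control level. Ta.10691.1.A1_x_at rose at least 7.63-fold in R, with an S change of 0.77 and an interaction of 3.27 ± 0.52 (adjusted p = 0.026), or 2.01 (adjusted p = 0.037) with dim signals set to the control level. Ta.4702.3.S1_x_at changed by 2.56 in R and 0.25 in S, and its interaction was 2.31 ± 0.37 (adjusted p = 0.025). In the same design cluster, Ta.4702.1.S1_a_at and Ta.4702.1.S1_x_at rose in S by 0.81 and 0.91 (adjusted p = 0.036 and 0.025, limma). Their interactions of 1.03 and 1.12 did not pass. A further probe set of the cluster, Ta.4702.2.S1_at, changed by −0.52 in S without a call. Cluster Ta.19092 had 2 members, Ta.19092.1.S1_at and Ta.19092.1.S1_x_at, which moved by 1.59 and 1.67 in R and by −0.71 and −0.55 in S. Their interactions were 2.31 ± 0.38 (adjusted p = 0.028) and 2.22 ± 0.40 (adjusted p = 0.047), and R was the lower genotype with good watering and close to S under drought. TaAffx.110972.1.S1_at had the smallest interaction of the rising ones, 1.82 ± 0.33 (adjusted p = 0.047), from 2.45 in R and 0.63 in S.

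Among the 7 that fell in R without a call in S, Ta.19805.2.S1_a_at fell furthest on the fitted scale. It had 4.91, 9.19 and 145 in droughted R plants, against 10113, 5201 and 10197 in well-watered R plants. S had 3.05, 2.8 and 5.25 in droughted S plants, against 41.9, 5.89 and 30.1 in well-watered S plants. The transcript was bright in well-watered R, 1 droughted R array was just over the control level, and both S groups were dim, so a fall in S could not have been measured. Its R change was −7.53 ± 0.67 and its interaction −6.55 ± 0.95 (adjusted p = 0.017). TaAffx.109191.1.S1_at had a fall in R of at least 7.24-fold, dim S arrays throughout and an interaction of −4.70 ± 0.80 (adjusted p = 0.037), or −2.71 (adjusted p = 0.011) with dim signals set to the control level.

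Ta.4325.1.A1_at was measured in both genotypes. It had 31, 66.7 and 31.5 in droughted R plants, against 1528, 1076 and 562 in well-watered R plants. Its S signals were 1537, 2191 and 2027 in droughted S plants, against 2068, 3037 and 3036 in well-watered S plants. It was dim in droughted R and bright in S, where the groups overlapped (interaction −3.63 ± 0.50, adjusted p = 0.013). With dim signals set to the control level, the interaction was −2.28 (adjusted p = 0.054). Ta.2981.1.A1_a_at had 4.74 ± 1.15 in droughted and 135 ± 68.2 in well-watered R plants and 1002 ± 136 in droughted and 634 ± 147 in well-watered S plants (SD, n = 3 each). Its interaction was −3.42 ± 0.55 (adjusted p = 0.027), and −0.90 (adjusted p = 0.25) with dim signals set to the control level. Its well-watered R signals lay near that level. The other 3 were above the control level on all 12 arrays. Ta.22076.1.S1_x_at changed by −2.17 ± 0.30 in R and 0.25 ± 0.30 in S, with an interaction of −2.42 ± 0.43 (adjusted p = 0.042). Ta.24742.1.S1_x_at changed by −1.81 ± 0.28 and 0.40 ± 0.28, with an interaction of −2.21 ± 0.39 (adjusted p = 0.044), and Ta.22488.1.S1_at by −1.45 ± 0.26 and 0.70 ± 0.26, with −2.15 ± 0.37 (adjusted p = 0.037). With each array left out in turn, the calls of these 3 were kept in 0, 1 and 3 of 12 fits. Under the 4 other scalings they were kept in 0, 1 and 1.

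In S, drought changed 19 of the 57 without a call in R, 13 upward and 6 downward. The 95% interval of the R change lay within 2-fold either way for 5 of the 19 and within 4-fold for 13, and both R groups were dim on every array for 4. The direction of these uncalled R changes depended on the scaling, with 9 of the 19 turning under hybridization control scaling and 2 under median scaling, and they are given as values only.

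Ta.64.1.S1_at is paired with locus LOC543479. It had 7.5, 52 and 134 in droughted R plants, against 8.97, 8.5 and 53.2 in well-watered R plants. The S arrays gave 17242, 5579.8 and 3628 in droughted S plants, against 3.32, 2.79 and 2.05 in well-watered S plants. It was bright in droughted S alone, at least 54.6-fold above well-watered S, with 1 droughted R array just over the control level. The interaction was −7.73 ± 0.99 (adjusted p = 0.0063), and −5.59 (adjusted p = 0.0047) with dim signals set to the control level. A second probe set of this locus from another design cluster, Ta.2799.1.S1_x_at, measured a rise of 2.38 in S (adjusted p = 0.00025), a change of 0.66 in R (adjusted p = 0.18) and an interaction of −1.72 that did not pass (adjusted p = 0.18). Ta.13818.1.S1_at had 106, 121 and 56.5 in droughted R plants, against 14.9, 34.4 and 25.5 in well-watered R plants. In S the values were 29382, 6783 and 32828 in droughted S plants, against 74.5, 3.92 and 149.7 in well-watered S plants. Droughted S was the highest group, R was dim in both regimes, and the interaction was −6.72 ± 0.99 (adjusted p = 0.019), or −6.95 with dim signals set to the control level. Between this probe set and Ta.64.1.S1_at, the order of size thus turns with the treatment of dim signals.

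Ta.14946.1.S1_at was bright in every group and differed in where it started. It had 15482, 23744 and 21212 in droughted R plants, against 38060, 21429 and 34065 in well-watered R plants. S signals were 30720, 51512 and 57885 in droughted S plants, against 723, 1516 and 2328 in well-watered S plants. Well-watered S alone lay apart, below the other 9 arrays, and the droughted S arrays lay within or above the range of R. The change was 5.03 ± 0.38 in S, the R interval was −1.42 to 0.19, and the interaction was −5.64 ± 0.53 (adjusted p = 0.00052). Ta.21353.1.S1_at also had well-watered S at the bottom, but with well-watered R at the top, at 1661 ± 359 in droughted and 3229.8 ± 1812 in well-watered R plants and 1115 ± 747 in droughted and 29.1 ± 25.1 in well-watered S plants (SD, n = 3 each). It rose in S at least 6.68-fold, with an interaction of −5.34 ± 0.88 (adjusted p = 0.031) and of −3.45 (adjusted p = 0.12) with dim signals set to the control level.

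Ta.11415.1.A1_at was above the control level in droughted S only, at least 3.72-fold over well-watered S, with an interaction of −5.55 ± 0.82 (adjusted p = 0.02). Set to the control level its dim signals left −1.78 (adjusted p = 0.089). Ta.30890.1.S1_at had 57.1 ± 15.7 in droughted and 118 ± 74.9 in well-watered R plants and 4733 ± 997 in droughted and 366 ± 146 in well-watered S plants (SD, n = 3 each), with an interaction of −4.37 ± 0.68 (adjusted p = 0.024). TaAffx.42928.1.S1_at was dim in R throughout and changed by 2.99 ± 0.47 in S (interaction −3.88 ± 0.67, adjusted p = 0.037), and TaAffx.85640.1.S1_at was bright in droughted S alone, at least 5.82-fold over well-watered S (interaction −4.13 ± 0.75, adjusted p = 0.048). Ta.10270.2.A1_a_at measured −1.32 in R and 3.25 in S, with an interaction of −4.57 ± 0.77 (adjusted p = 0.036). TaAffx.58010.1.S1_at measured −0.67 and 2.62, and its interaction was −3.29 ± 0.42 (adjusted p = 0.0063). In TaAffx.120260.1.S1_at the S rise was at least 3.16-fold and the interaction was −3.28 ± 0.56 (adjusted p = 0.037). With dim signals set to the control level, the interactions of TaAffx.85640.1.S1_at and TaAffx.120260.1.S1_at were −2.41 (adjusted p = 0.0057) and −2.13 (adjusted p = 0.043). The smallest errors of the 19 belonged to Ta.4296.1.S1_at and Ta.28281.3.S1_a_at, above the control level on all 12 arrays, with S changes of 1.27 and 1.11 and interactions of −1.77 ± 0.31 (adjusted p = 0.039) and −1.62 ± 0.27 (adjusted p = 0.034). Their R changes were −0.49 (interval −0.96 to −0.03, adjusted p = 0.099, limma) and −0.52 (interval −0.93 to −0.10, adjusted p = 0.052, limma). Under hybridization control scaling both R changes were above 0, at 0.37 and 0.35.

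Of the 6 that drought lowered in S without a call in R, Ta.25315.1.A1_at was brightest in well-watered S. It had 258, 167 and 154 in droughted R plants, against 119, 78.7 and 193 in well-watered R plants. S had 168, 44.3 and 13.8 in droughted S plants, against 683, 1205 and 1208 in well-watered S plants. Well-watered S was the highest group and the other 3 overlapped (interaction 4.43 ± 0.79, adjusted p = 0.047). TaAffx.12670.1.A1_at was at least 6.3-fold lower in droughted S, with an R change of −1.19 that just missed the call (adjusted p = 0.051) and an interaction of 4.00 ± 0.62 (adjusted p = 0.024). With dim signals set to the control level this interaction was 1.65 (adjusted p = 0.17). Ta.6540.1.S1_at had 881 ± 134 in droughted and 547 ± 63.4 in well-watered R plants and 157 ± 60.8 in droughted and 728 ± 179.8 in well-watered S plants, and Ta.27916.1.A1_s_at had 1855 ± 679 in droughted and 1609.8 ± 138 in well-watered R plants and 1032 ± 398 in droughted and 6508 ± 2207 in well-watered S plants (SD, n = 3 each). Their interactions were 2.81 ± 0.44 (adjusted p = 0.025) and 2.80 ± 0.45 (adjusted p = 0.027). Smaller ones were 2.20 ± 0.36 (adjusted p = 0.031) for Ta.6575.3.S1_s_at and 1.93 ± 0.33 (adjusted p = 0.036) for Ta.8890.1.S1_x_at, both bright on all 12 arrays with S changes of −1.99 and −2.14.

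**Figure D3:**
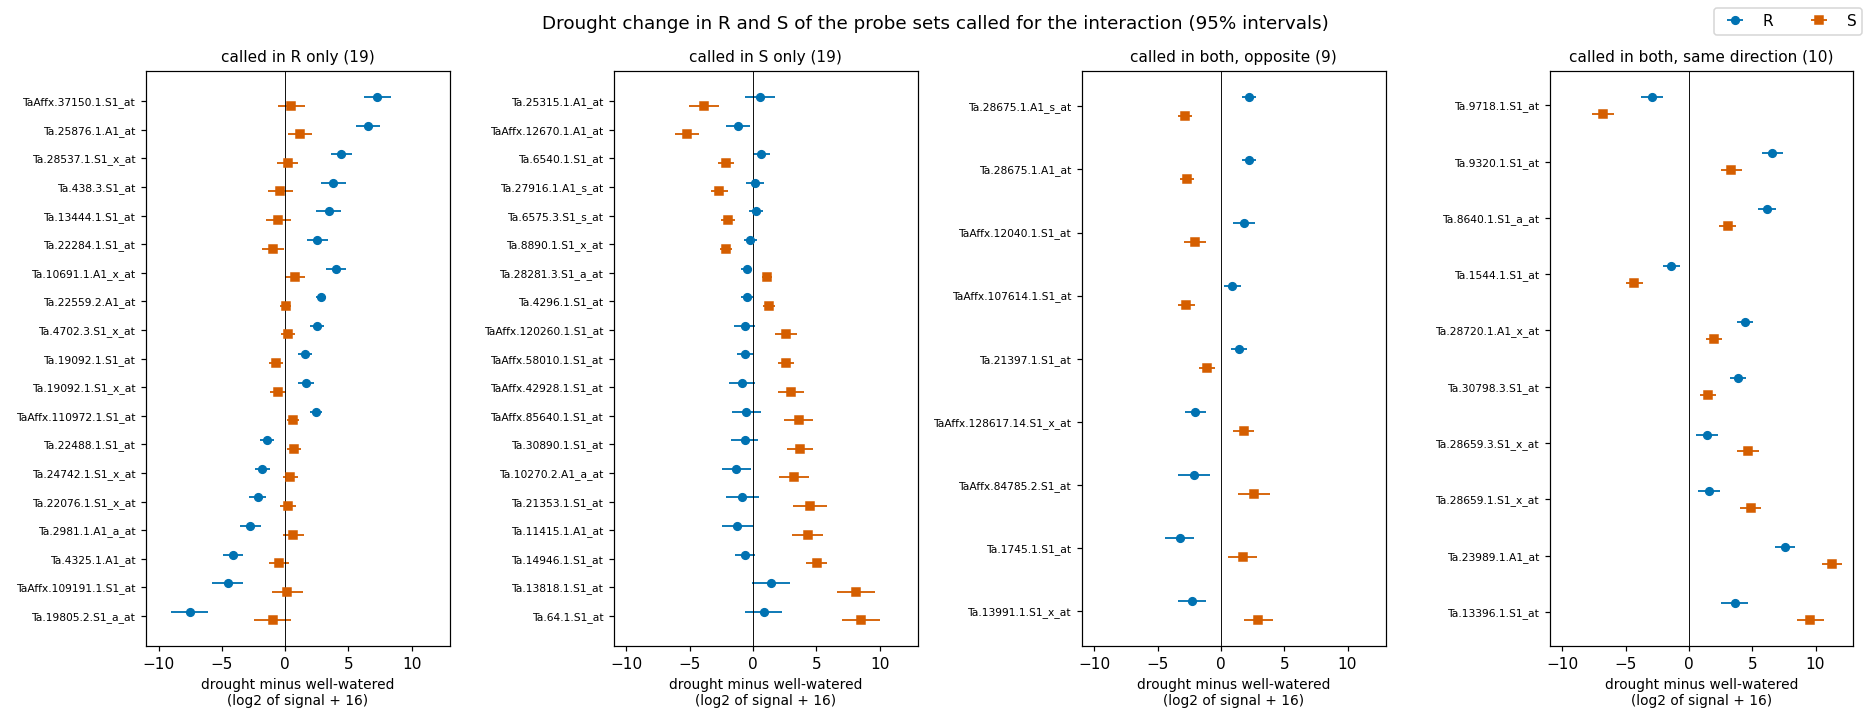
Drought change in R (circles) and S (squares) for each of the 57 probe sets in 4 panels by class, as log2 of signal + 16 with 95% intervals. In the panels of probe sets called in 1 genotype, the other genotype's interval reaches 0 or lies near it. In the last panel 8 of the 10 changes are upward in both genotypes.

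The last class holds 10 probe sets that drought moved the same way in both genotypes, 8 upward and 2 downward, by unequal amounts. Ta.13396.1.S1_at had 1192, 460.4 and 448 in droughted R plants, against 40.04, 11.1 and 78.2 in well-watered R plants. Its S signals were 21873, 12324 and 20191 in droughted S plants, against 20.9, 2.5 and 2.18 in well-watered S plants. It was dim in both well-watered groups, at least 4.85-fold higher under drought in R and at least 136-fold in S, and droughted S was far above droughted R. The interaction was −5.95 ± 0.71 (adjusted p = 0.0038), and −4.77 (adjusted p = 0.0026) with dim signals set to the control level. Ta.23989.1.A1_at had 33140, 15304 and 24174 in droughted R plants, against 115, 51 and 192 in well-watered R plants. S had 53926, 50507 and 59706 in droughted S plants, against 11.4, 3.21 and 3.67 in well-watered S plants. All well-watered S signals were dim, so its rise in S is given as at least 423-fold, and the fitted interaction was −3.73 ± 0.52 (adjusted p = 0.013). With dim signals set to the control level, the interaction was −1.41 (adjusted p = 0.11).

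Cluster Ta.28659 gave 2 members that reached nearly the same level under drought from different starting levels. Ta.28659.1.S1_x_at had 67935, 46045 and 39119 in droughted R plants, against 29253, 8786 and 19017 in well-watered R plants. S had 47038, 50339 and 69215 in droughted S plants, against 1509, 1348 and 3198 in well-watered S plants. The drought groups overlapped and well-watered S was the lowest group, with an interaction of −3.31 ± 0.57 (adjusted p = 0.037). Ta.28659.3.S1_x_at gave −3.23 ± 0.57 (adjusted p = 0.044), from changes of 1.43 in R and 4.67 in S. Ta.9718.1.S1_at fell in both genotypes. It had 55.9, 38.4 and 13.2 in droughted R plants, against 225, 284 and 666 in well-watered R plants. S had 92.8, 82.9 and 67 in droughted S plants, against 9916, 12025 and 9577 in well-watered S plants. Both droughted groups were dim, so the falls of at least 2.71-fold in R and at least 81-fold in S are bounds, and S was the higher genotype with good watering (interaction 3.85 ± 0.58, adjusted p = 0.02).

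For 2 loci the same class held a probe set. Ta.9320.1.S1_at of LOC543338 had 8633, 4041 and 4240.1 in droughted R plants, against 14.3, 49.6 and 67.9 in well-watered R plants. S had 11888, 9138 and 6691 in droughted S plants, against 678, 834 and 1176 in well-watered S plants. It rose at least 41-fold in R and by 3.34 ± 0.39 on the log2 scale in S, where it started higher, with an interaction of 3.25 ± 0.56 (adjusted p = 0.037). Its companion Ta.9320.1.S1_x_at of the same design cluster measured 6.03 in R, 3.73 in S and an interaction of 2.30 that did not pass (adjusted p = 0.11). Ta.1544.1.S1_at of LOC543258 had 74, 67.4 and 87.4 in droughted R plants, against 220.2, 155 and 328 in well-watered R plants. S had 166, 158 and 113 in droughted S plants, against 3355, 3737 and 2512 in well-watered S plants. Well-watered S was the highest group, the change in S was −4.32 ± 0.33 and the fall in R at least 1.73-fold, and the interaction was 2.93 ± 0.46 (adjusted p = 0.025). Ta.8640.1.S1_a_at had 9351 ± 2302 in droughted and 119 ± 45.7 in well-watered R plants and 4123 ± 1340.5 in droughted and 470.5 ± 88.8 in well-watered S plants (SD, n = 3 each), with changes of 6.15 in R and 3.04 in S and an interaction of 3.10 ± 0.47 (adjusted p = 0.02). Ta.28720.1.A1_x_at and Ta.30798.3.S1_at rose by 4.41 and 3.87 in R and by 1.98 and 1.52 in S, with interactions of 2.44 ± 0.41 (adjusted p = 0.036) and 2.35 ± 0.42 (adjusted p = 0.044).

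The same interactions can be read as a difference between genotypes that changes with water regime. R and S differed under drought alone in 22 of the 57, with good watering alone in 24, in both regimes with opposite signs in 6 and in both with the same sign in 5. Over all tested probe sets, 7.48% differed between the genotypes under drought and 7.28% with good watering. Of the 10 that moved in the same direction, 7 differed with good watering alone, so that their genotypes started from unequal fitted levels and had no called difference under drought. Among them, Ta.23989.1.A1_at had 1 well-watered R array and 0 well-watered S arrays above the control level, so its unequal start rests on dim signals. Its drought difference of −1.24 just missed the call (adjusted p = 0.056, limma). In the classes called in 1 genotype the counts were 9 and 6 of 19 for R (drought alone, good watering alone) and 8 and 7 of 19 for S. The absolute difference between R and S was larger under drought than with good watering in 31 of 57. These contrasts use the same arrays as the interaction and are a description of the 57, not a further test.

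Examples are given for each kind. TaAffx.37150.1.S1_at had an R minus S difference of 5.77 under drought and of −1.01 with good watering, and Ta.64.1.S1_at had −6.83 and 0.90. Both probe sets were dim on every well-watered array, so their differences with good watering are between dim signals. In contrast Ta.19805.2.S1_a_at differed by 1.16 under drought and by 7.71 with good watering, and Ta.14946.1.S1_at by −1.18 and 4.45. Ta.19805.2.S1_a_at was dim in both S groups and on all but 1 of the droughted R arrays. The 6 that crossed included Ta.13991.1.S1_x_at, at −2.68 under drought and 2.55 with good watering, and Ta.8640.1.S1_a_at, at 1.21 and −1.90.

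**Figure D4:**
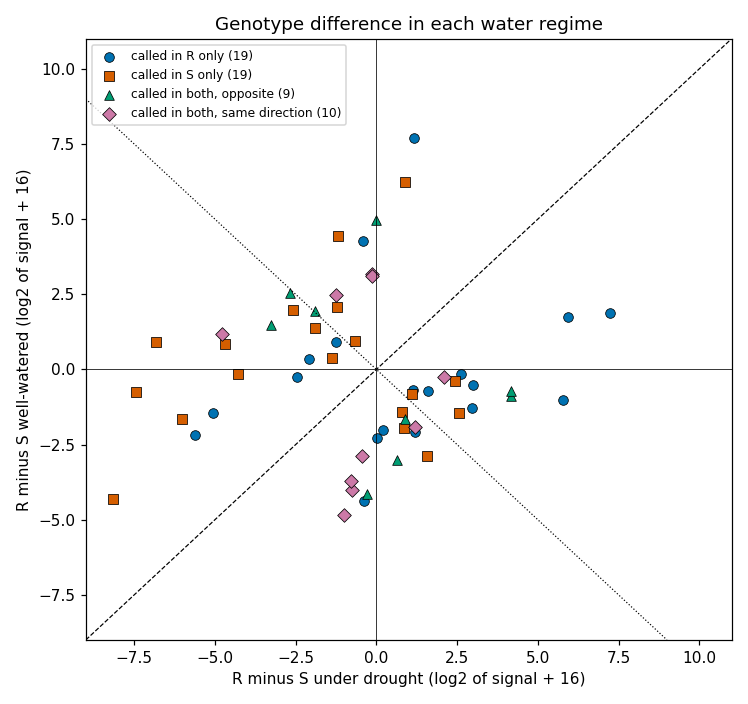
R minus S under drought (horizontal) and with good watering (vertical) for the 57 probe sets, as log2 of signal + 16, with symbols by class. The dashed line marks an equal difference and the dotted line an equal difference of opposite sign. The 24 with a called difference under good watering alone lie toward the vertical axis, and the 22 with one under drought alone toward the horizontal axis.

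Counting arrays without any model, 52 of the 57 had at least 1 group whose 3 arrays all lay above or all below the other 9, against 27.1% of all tested probe sets. Droughted R was such a group in 19 of the 57 (10.3% of all tested), well-watered R in 15 (6.81%), droughted S in 18 (4.3%) and well-watered S in 20 (9.33%). The interaction that chose the 57 uses the same arrays, so these counts are a description. Droughted S lay alone at the top in 8 of the 57 and well-watered S alone at the bottom in 5. Droughted R alone was at the top in 5, and droughted R at the top together with well-watered R at the bottom in another 5. In the 2 probe sets of cluster Ta.28675 droughted R was at the top and droughted S at the bottom.

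Other probe sets of the same design clusters are described next. They are those whose own interaction missed the threshold, they were read on the same arrays and they may share probes, so they are no independent check of the 57. The 57 fall in 54 clusters, and 19 of these held 43 further tested probe sets. Their interaction had the sign of the member in 38 of the 43, and at an unadjusted p under 0.05 in 29, where 12.9% of all tested probe sets reach that p in either sign. All 29 had the member's sign. Of the 43, 8 had an adjusted p under 0.1, and a value under 0.05 would have made a probe set one of the 57. In cluster Ta.6575, beside Ta.6575.3.S1_s_at, the probe set Ta.6575.1.S1_a_at measured an interaction of 1.87 (adjusted p = 0.052), Ta.6575.2.A1_x_at 1.67 (adjusted p = 0.069), Ta.6575.1.S1_x_at 1.44 (adjusted p = 0.088) and Ta.6575.3.S1_at 1.78 (adjusted p = 0.13). In cluster Ta.438, beside Ta.438.3.S1_at, the 3 mates had smaller interactions of 0.99, 1.13 and 1.36. Beside Ta.19805.2.S1_a_at the 2 mates measured −3.75 and −2.33, and beside TaAffx.128617.14.S1_x_at 9 of 10 mates were below 0, as the member is. Cluster mates also differed from a member, as Ta.13396.2.S1_at did from Ta.13396.1.S1_at, with −0.72 (adjusted p = 0.73) after rises of 4.34 in R and 5.06 in S. Likewise Ta.30798.2.S1_at measured −0.31 (adjusted p = 0.66) beside Ta.30798.3.S1_at. Beside Ta.22076.1.S1_x_at, the mate Ta.22076.2.S1_at lay just outside the threshold at −1.76 (adjusted p = 0.054).

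Brightness of the 57 was near that of the table as a whole. On all 12 arrays 24 of 57 (42.1%) lay above the control level, against 38% of tested probe sets, and 27 (47.4%) had at least 1 wholly dim group, against 44.6%. Probe sets whose ID ends in x_at, some of whose probes also match other transcripts, made up 12 of the 57 (21.1%) and 13.8% of those tested, and their signals may mix several transcripts.

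Genes that the annotation names with a symbol had no called interaction. Their 8 tested genes (11 probe sets) were FBP, GAPN, petC, CAT1, SAHH, TUBA, TBP1 and XTH, and the count of called ones was 0 in the limma fit at an adjusted p of 0.05, with 1 at an unadjusted p under 0.05 (the second FBP probe set, TaAffx.106041.1.S1_at). For photosynthesis and the triose phosphates, FBP, fructose-1,6-bisphosphatase of sugar phosphate metabolism, measured 0.12 (95% interval −1.25 to 1.5, adjusted p = 0.96). GAPN, the non-phosphorylating glyceraldehyde-3-phosphate dehydrogenase, measured −0.69 (95% interval −2.18 to 0.81, adjusted p = 0.72), and petC, the Rieske iron-sulfur protein, −0.47 (95% interval −1.33 to 0.4, adjusted p = 0.66). The interval of FBP reaches a 2-fold difference in either direction. Those of GAPN and petC reach 2-fold, on the values as deposited, only in the direction of a lower value in R.

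For CAT1, a catalase, the interaction was 0.29 (95% interval −0.37 to 0.95, adjusted p = 0.73). SAHH, which hydrolyses S-adenosylhomocysteine, gave 0.13 (95% interval −0.62 to 0.89, adjusted p = 0.91) and, on its second probe set, 0.10 (95% interval −0.84 to 1.04, adjusted p = 0.95). TUBA, an alpha-tubulin, gave 0.04 (95% interval −0.69 to 0.77, adjusted p = 0.98), and TBP1, a TATA-binding protein, 0.61 (95% interval −0.13 to 1.35, adjusted p = 0.47). For CAT1, TUBA and the first SAHH probe set, an interaction of 2-fold either way lies outside the interval. XTH, which remodels xyloglucan in cell walls, was dim in R in both regimes and gave −0.88 (95% interval −2.81 to 1.05, adjusted p = 0.72). The second probe sets of FBP and CAT1, both dim on several arrays, gave −2.08 (95% interval −3.95 to −0.2, adjusted p = 0.33) and −1.18 (95% interval −2.73 to 0.37, adjusted p = 0.51). The tested probe sets with any locus or symbol numbered 969, of 645 genes, and 4 of them were called (LOC543440, LOC543479, LOC543338 and LOC543258).

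The call of an interaction was fragile for most of the 57. Leaving out 1 array at a time, 11 of the 57 stayed called in all 12 fits, which were the 2 of cluster Ta.28675, TaAffx.107614.1.S1_at, TaAffx.37150.1.S1_at, Ta.25876.1.A1_at, Ta.28537.1.S1_x_at, Ta.22559.2.A1_at, Ta.64.1.S1_at, Ta.14946.1.S1_at, TaAffx.58010.1.S1_at and Ta.13396.1.S1_at. Of these 11, 7 also stayed called under each of the 13 other alternatives at the same threshold, the exceptions being TaAffx.107614.1.S1_at and Ta.28537.1.S1_x_at, lost against a 2-fold interaction, Ta.22559.2.A1_at, lost with poly-A control scaling, and TaAffx.58010.1.S1_at, lost with hybridization control scaling and against a 2-fold interaction. The number of the 57 that stayed called was 22, 51 and 26 without well-watered R replicates 1, 2 and 3, and 32, 19 and 39 without droughted R replicates 1, 2 and 3. It was 24, 23 and 41 without well-watered S replicates 1, 2 and 3, and 34, 36 and 14 without droughted S replicates 1, 2 and 3. All 57 kept their sign in every one of these fits, which their choice for large interactions on the same arrays makes likely. With dim signals set to the control level 46 of the 57 stayed called, but wholly dim groups then have no spread, which favours a call. Beside the 6 whose adjusted p over 0.05 under this setting is given above, the call was lost by Ta.10270.2.A1_a_at (−3.78, adjusted p = 0.053), Ta.9320.1.S1_at (1.85, adjusted p = 0.11), Ta.28720.1.A1_x_at (1.51, adjusted p = 0.093) and the 2 of cluster Ta.28659 (adjusted p = 0.054 and 0.061, with no dim array). At the threshold itself, Ta.19092.1.S1_x_at and TaAffx.85640.1.S1_at were the last inside (adjusted p = 0.047 and 0.048). Just outside lay Ta.14269.1.A1_at, with an interaction of 2.19 from 4.66 in R and 2.47 in S (adjusted p = 0.0503), and Ta.6575.1.S1_a_at (adjusted p = 0.052).

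**Figure D5:**
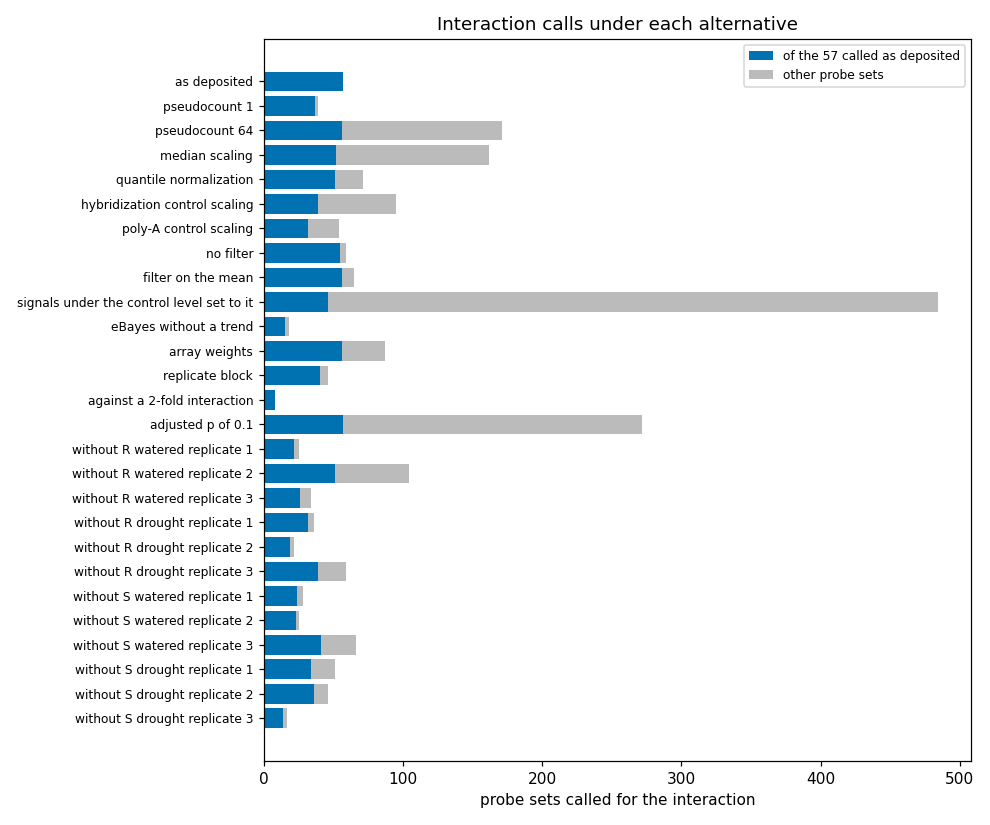
Number of probe sets called for the interaction under the analysis as reported and each alternative, as bars that start at 0, with the part that belongs to the 57 in blue and other probe sets in grey. The count without 1 array ran from 17 to 104, and it was highest, at 484, with dim signals set to the control level.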

How the data were processed

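Total RNA of 12 samples was labelled with biotin in one-cycle Affymetrix labelling, per the labels. The deposited values are linear signal intensities from MAS5, named in the submitters' processing notes without a version or scaling target. Trimmed by 2% at either end, the mean of each array was 500.3. Sample titles gave the groups and replicate numbers, because the closing description line is the same for all samples.

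From the 61290 probe sets, 111 AFFX and 64 RPTR ones were left out. The 38398 (62.8% of 61115) that exceeded the array median on 3 or more of the 12 arrays were fitted as log2(signal + 16) with limma 3.58.1 in R 4.3.3 (4 group means, eBayes with a trend), which was tested on simulated data. Adjusted p-values are Benjamini-Hochberg values over all tested probe sets, within each contrast. Classes use calls at 0.05 within each genotype. Errors of log2 changes are SE unless SD is stated. Where all 3 arrays of a group were under the control level, its ratio is "at least N-fold", with dim arrays set to the higher of their own signal and that level. The number of arrays limits the precision.

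The rule named every called probe set with a gene, the 4 largest interactions per class and sign, symbol genes and the threshold's neighbours. The other called probe sets were added with shorter values. Members, classes and lists were chosen with earlier results of these data known. Gene names came from the platform annotation of 2007, which pairs 1273 probe sets with 771 genes and leaves the others unnamed. Design clusters are probe sets whose IDs share the cluster number. Alternatives covered pseudocounts, scaling, filters, dim signals, the variance trend, array weights, the replicate block, thresholds and each array left out. Plots were made in Python 3.11.15 (matplotlib 3.10.9).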

Additional observations from a re-analysis of the deposited data

Results flagged for a closer look

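The drought effects of R and S differed by the test of the difference itself in 57 probe sets. For the 33 of them that the rule for naming probe sets picks out, the interaction (R minus S, log2 scale) is given here by class, and their p-values stand with the results. In the opposite class it was −5.24 for Ta.13991.1.S1_x_at, −4.98 for Ta.1745.1.S1_at, −4.75 for TaAffx.84785.2.S1_at, −3.83 for TaAffx.128617.14.S1_x_at, 3.65 for TaAffx.107614.1.S1_at, 3.85 for TaAffx.12040.1.S1_at, 4.89 for Ta.28675.1.A1_at and 5.05 for Ta.28675.1.A1_s_at. Among those called in R alone it was −6.55 for Ta.19805.2.S1_a_at, −4.70 for TaAffx.109191.1.S1_at, −3.63 for Ta.4325.1.A1_at, −3.42 for Ta.2981.1.A1_a_at, 4.01 for Ta.13444.1.S1_at, 4.19 for Ta.438.3.S1_at, 4.26 for Ta.28537.1.S1_x_at, 5.38 for Ta.25876.1.A1_at and 6.78 for TaAffx.37150.1.S1_at. Among those called in S alone it was −7.73 for Ta.64.1.S1_at, −6.72 for Ta.13818.1.S1_at, −5.64 for Ta.14946.1.S1_at, −5.55 for Ta.11415.1.A1_at, 2.80 for Ta.27916.1.A1_s_at, 2.81 for Ta.6540.1.S1_at, 4.00 for TaAffx.12670.1.A1_at and 4.43 for Ta.25315.1.A1_at. Where both genotypes changed in the same direction it was −5.95 for Ta.13396.1.S1_at, −3.73 for Ta.23989.1.A1_at, −3.31 for Ta.28659.1.S1_x_at, −3.23 for Ta.28659.3.S1_x_at, 2.93 for Ta.1544.1.S1_at, 3.10 for Ta.8640.1.S1_a_at, 3.25 for Ta.9320.1.S1_at and 3.85 for Ta.9718.1.S1_at.

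Probe sets outside the rule also carried signal. Of 64 reporter probe sets, 1 lay above the control level on all 12 arrays, and of 25 wheat control probe sets 7 did. None of them had a called interaction (limma), the lowest adjusted p being 0.346 for the reporters and 0.176 for the wheat controls, with 1 and 3 at an unadjusted p under 0.05.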

How the results depend on the processing

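The number of called interactions moved with most choices, while the sign of each of the 57 held in all of them. The 57 were chosen on these arrays for interactions large against their errors, so kept signs are no separate check. Given as all calls, those called in 1 genotype, opposite and same direction, the counts were 57, 38, 9 and 10 as reported. A pseudocount of 64 gave 171, 119, 20 and 32. Median scaling gave 162, 101, 26 and 35, and dim signals raised to the control level gave 484, 410, 26 and 48. Raising dim signals removes the spread within wholly dim groups, so calls under it are easier to reach. At an adjusted p of 0.1 they were 272, 192, 34 and 46, against a 2-fold interaction 8, 5, 2 and 1, and with eBayes without a trend 18, 10, 6 and 2. With hybridization control scaling all calls, those in 1 genotype and same direction were 95, 62 and 20, and with array weights all calls, opposite and same direction were 87, 15 and 22. A pseudocount of 1 left 23 called in 1 genotype, and quantile normalization gave 14 opposite and 16 same direction.

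Without 1 array the counts ran from 17 to 104, from 11 to 63, from 3 to 24 and from 2 to 17. Of the 57, 21 stayed called under all 4 other scalings, and 46 with dim signals set to the control level, where 18 of the 27 with a wholly dim group did. With the replicate block, 46 probe sets were called, 40 of them among the 57. Of 18 pairs of arrays with the same replicate number, 1 had a correlation of deviations over 0.1 (−0.13 to 0.18). Among 36 pairs with different numbers, 2 did (−0.22 to 0.22). These values showed no pairing, though with 3 arrays a group one could be missed, and the numbers were not taken to pair the samples. The number of symbol genes with a called interaction was 0 in all alternatives. Named probe sets were weaker, past the threshold no more, in 212 of their fits and the same in 645, and none turned its sign. The causes were not tested. Every alternative that was planned was run. The filter on the mean left out 1 of the 57, and signals near background limit the bounds given as at least.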
